A study of Mus musculus with 3 samples.

Results

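The nuclear genes of oxidative phosphorylation were described in regulatory T cells (Treg cells), the Foxp3-dependent CD4 T cells that hold immune responses in check. Members were taken by gene symbol: every gene whose symbol starts with Nduf, Uqcr, Cox4 to Cox8 or Atp5, plus Sdha, Sdhb, Sdhc and Sdhd. The rule found 93 of the 22457 genes in the count tables. They comprise 38 Nduf genes of complex I, 8 Ndufaf genes for complex I assembly factors, 4 genes of complex II, 8 of complex III, 18 of complex IV and 17 of complex V. The cells were primary Treg cells of a male adult mouse aged 4 months. Poly(A) RNA was sonicated (size range 100 to 300), and 3 libraries were sequenced that the labels call technical replicates 1, 2 and 3 of 1 biological replicate. There is 1 group, so no treatment or genotype is compared. The sources used here give neither the strain nor the isolation of the cells. Each SD and p-value below covers only differences between libraries, which share 1 biological sample, and not those between animals.

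Oxidative phosphorylation passes electrons from NADH (complex I) and succinate (complex II) through coenzyme Q to complex III, and on through cytochrome c to complex IV, which reduces oxygen. Complexes I, III and IV pump protons across the inner mitochondrial membrane, and complex V, the ATP synthase, uses the gradient to make ATP. Most subunits are encoded in the nucleus, and a small set in the mitochondrial genome. Treg cells are known for relying on mitochondrial respiration more than activated conventional T cells do. Several subunits of complexes I, IV and V have paralogues that are known to be used in particular tissues, such as muscle or testis.

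The libraries held 3316275, 3079004 and 2782259 counts, so that the limit set by a count of 0 is 0.905, 0.974 and 1.08 CPM (counts per 1e6 counts of the library) in libraries 1, 2 and 3. This limit, 3 counts, covers counting error only. The markers Foxp3, Il2ra, Ctla4, Ikzf2 and Tnfrsf18 and the CD4 T cell markers Cd4, Cd3e, Cd3d, Cd3g, Lck and Ptprc each reached at least 1 CPM in every library. Of 14 B cell markers 13 reached it too, Pax5 being the exception, and their summed level was 1513, 1944 and 2015 CPM. Of 6 monocyte and macrophage markers 3 reached it, with sums of 45.5, 118 and 40.3 CPM. Of 6 erythroid markers 2 reached it, with sums of 6.33, 14.0 and 30.9 CPM. In bulk RNA, fewer cells of a type and less RNA per cell cannot be told apart.

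Coding sequences from GENCODE M21 (GRCm38) of 6 members are shown, because several members with few counts have coding sequence that also occurs in other genes. Capitals mark bases inside a run of 31 (a 31-mer) that also occurs in an annotated transcript of another gene. Up to the last 225 coding bases before the stop codon are printed, 5′ to 3′. The first 3 encode the c subunit, which forms the rotating ring of the ATP synthase. Cox7c encodes a small subunit of complex IV, and Cox7a2 and Cox7a1 the widely expressed and the heart and muscle form of another.
Atp5g1: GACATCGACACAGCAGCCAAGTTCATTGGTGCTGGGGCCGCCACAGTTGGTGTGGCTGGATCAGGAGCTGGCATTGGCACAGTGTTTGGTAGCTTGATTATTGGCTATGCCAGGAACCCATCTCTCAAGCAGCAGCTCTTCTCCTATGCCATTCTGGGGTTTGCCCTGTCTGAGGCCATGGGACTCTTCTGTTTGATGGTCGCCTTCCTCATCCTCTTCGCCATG
Atp5g2: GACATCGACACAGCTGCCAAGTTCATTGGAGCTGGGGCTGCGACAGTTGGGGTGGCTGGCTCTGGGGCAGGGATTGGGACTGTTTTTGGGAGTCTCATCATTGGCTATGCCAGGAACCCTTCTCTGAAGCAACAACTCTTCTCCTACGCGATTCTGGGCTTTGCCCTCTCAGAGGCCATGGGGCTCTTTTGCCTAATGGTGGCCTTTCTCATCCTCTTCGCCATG
Atp5g3: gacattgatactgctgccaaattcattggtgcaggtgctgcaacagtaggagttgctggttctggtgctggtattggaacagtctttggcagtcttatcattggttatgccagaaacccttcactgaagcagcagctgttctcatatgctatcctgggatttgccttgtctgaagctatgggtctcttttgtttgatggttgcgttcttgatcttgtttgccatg
Cox7c: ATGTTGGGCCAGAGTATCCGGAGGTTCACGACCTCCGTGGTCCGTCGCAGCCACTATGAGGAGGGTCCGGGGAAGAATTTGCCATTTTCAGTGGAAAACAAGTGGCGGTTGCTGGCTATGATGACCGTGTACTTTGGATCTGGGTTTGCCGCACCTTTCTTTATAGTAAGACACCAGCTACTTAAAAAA
Cox7a2: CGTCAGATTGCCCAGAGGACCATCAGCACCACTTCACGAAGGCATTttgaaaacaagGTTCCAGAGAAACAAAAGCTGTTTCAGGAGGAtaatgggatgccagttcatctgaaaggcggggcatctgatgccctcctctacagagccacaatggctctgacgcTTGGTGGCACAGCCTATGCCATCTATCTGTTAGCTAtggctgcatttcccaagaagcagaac
Cox7a1: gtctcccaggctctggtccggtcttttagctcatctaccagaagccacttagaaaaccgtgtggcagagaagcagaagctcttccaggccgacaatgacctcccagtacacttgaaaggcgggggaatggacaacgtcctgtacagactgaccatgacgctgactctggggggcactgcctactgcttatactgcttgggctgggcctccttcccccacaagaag
Over these 225 bases Atp5g1 was identical to Atp5g2 at 84.9% of positions and to Atp5g3 at 80% of positions, and Atp5g2 was identical to Atp5g3 at 78.7%.

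Nearly all subunit genes were expressed. Of the 93 members 85, or 91.4%, reached 1 CPM in each library, against 47.3% of all 22457 genes. By complex these were 37 of 38 for complex I, 8 of 8 assembly factors, 4 of 4 for complex II, 8 of 8 for complex III, 12 of 18 for complex IV and 16 of 17 for complex V. The 8 that did not were Ndufa4l2, Cox4i2, Cox6a2, Cox7a1, Cox7b2, Cox8b, Cox8c and Atp5g2. All 8 are paralogues of a member that did. Members took 1.447% ± 0.087 of all counts (SD, n = 3 libraries).

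Summed by complex, complex I subunits had 5724, 5961 and 6500 CPM in libraries 1, 2 and 3 (mean 6062 ± 398, SD). Complex V had 3409, 3513 and 3844 CPM (3588 ± 227). Complex III had 1560, 1682 and 1767 CPM, with library 1 lowest and library 3 highest, as in complexes I, IV and V. Complex IV had 1342, 1449 and 1578 CPM, complex II 1249, 1228 and 1285 CPM, and the assembly factors 436, 437 and 460 CPM. The SD over libraries was 28.4 CPM for complex II and 13.7 CPM for the assembly factors. The number and length of the genes enter such sums, so genes are compared below by counts per coding base, the mean count of the 3 libraries divided by the coding length. These counts are not scaled to the library totals. A small SD of counts per coding base therefore means close counts and not a steady CPM.

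Members had a median of 0.851 counts per coding base, against 0.003 for all genes with a coding length. Among detected genes alone the medians were 0.934 for members and 0.094 for all genes. The median coding length was 438 bases for members and 1203.5 bases for all genes. Across the 68 detected members with up to 50% of their coding 31-mers shared, longer genes had more counts (Spearman's rho 0.535 between mean count and coding length), against 0.111 across 9553 detected genes chosen the same way; genes share the 3 libraries and are not independent, so this is a description without a test. The median was 1.30 for complex V, 1.00 for complex III, 0.905 for complex II, 0.888 for complex I, 0.396 for complex IV and 0.236 for the assembly factors. With the length of all exons in place of the coding length, complex V fell to the fourth place at 0.218, below complex II at 0.396, complex III at 0.356 and complex I at 0.302. The order of complexes therefore depends on which length is used, and no neighbours in it are called different here. Over all genes with a coding length the highest value was 3.45 counts per coding base. From 1.8 upward, counts of the 3 libraries lay within 5% in all 4 members and in 76.3% of all genes, although the library totals differed. Whether the scale has an upper bound was not tested, so the order of dense genes is not read as an order of RNA levels.

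**Figure D1:**
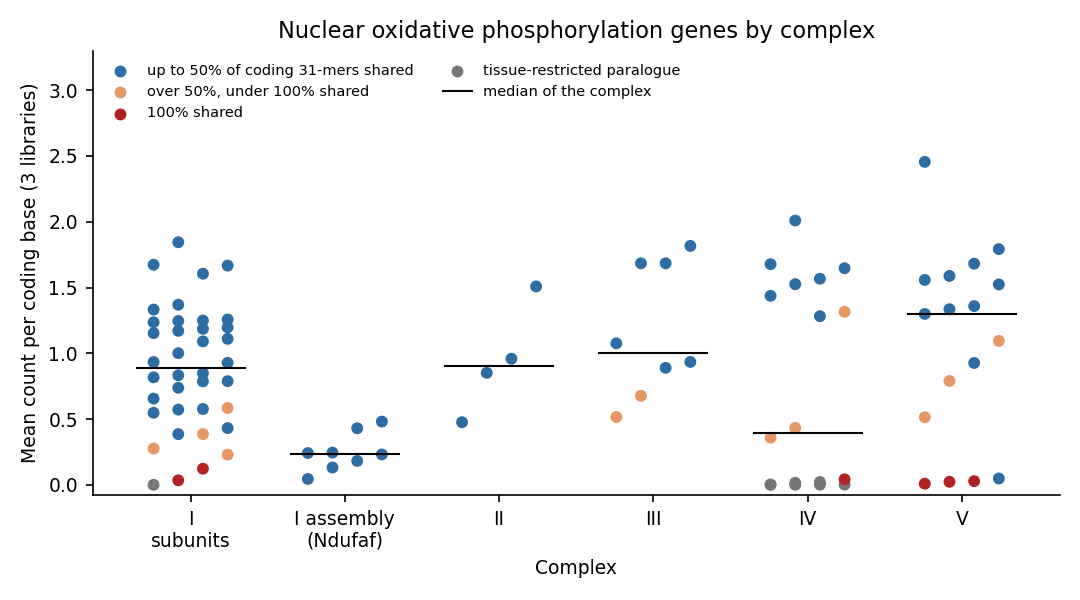
Each point is 1 gene: the vertical axis gives its mean count over the 3 libraries per coding base, the horizontal axis its complex, the colour its shared coding 31-mers or a tissue-restricted paralogue, and the line the median of the complex. The complex IV median of 0.396 lies between Cox5b (0.433) and Cox7a2l (0.358). A dense set from 1.28 to 2.01 lies above them, and Cox7c (0.042) and the paralogues near 0 lie below. The assembly factors all lie at or below 0.481.

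Complex I oxidises NADH. Its 7 core subunits of nuclear origin, which carry the flavin and the iron-sulfur clusters, were all detected. Ndufv2, an iron-sulfur subunit beside the NADH site, had 938, 910 and 932 counts (1.25 per coding base). Ndufs8, a subunit with 2 iron-sulfur clusters near the coenzyme Q site, had 769, 776 and 717 counts (1.19). Ndufs7, which holds the last cluster of the chain, had 570, 574 and 535 counts (0.833). Those were the 3 densest core genes.

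Ndufv1, which binds the flavin and NADH, had 807, 730 and 766 counts (0.548 per coding base). Ndufs1, the largest core subunit, had 1039, 909 and 886 counts (0.431). Its count was the highest of the 7 in library 1, while its density was the second lowest, since it is also the longest. Ndufs3 had 214, 218 and 220 counts (0.275), and 65.6% of its coding 31-mers also occur in other genes. The Nduf subunit genes outside the core had a median of 0.934 per coding base.

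The densest genes of complex I were accessory subunits, which surround the core and serve its assembly and stability. Ndufa4 had 458, 449 and 454 counts (1.84 ± 0.02 per coding base, SD over libraries); its product was first assigned to complex I and is now known as a complex IV subunit. Ndufa13, also known as a cell death regulator, had 727, 729 and 712 counts (1.67 ± 0.02). Ndufa1, a short X-linked gene, had 357, 344 and 349 counts (1.67 ± 0.03). Ndufb7 had 648, 668 and 663 counts (1.61 ± 0.03).

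In all 4 of these genes the unscaled counts of the libraries lay close together. Scaled to the library totals, Ndufb7 had 195, 217 and 238 CPM. At the other end, Ndufa4l2, a paralogue of Ndufa4 induced by hypoxia, had a count of 0 in each library, and Ndufab1, the mitochondrial acyl carrier protein, had 14, 16 and 18 counts (0.034). All coding 31-mers of Ndufab1 are shared with other genes.

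The Ndufaf genes encode factors that help to build complex I and are not part of the finished enzyme. They ranged from 0.045 to 0.481 counts per coding base, all below the median of the complex I subunits. Ndufaf8 had 118, 117 and 137 counts (0.481), Ndufaf3 255, 245 and 216 (0.430), Ndufaf4 141, 140 and 146 (0.245) and Ndufaf7, a protein arginine methyltransferase, 392, 363 and 316 (0.241). The lowest were Ndufaf5 with 152, 118 and 136 counts (0.132) and Ndufaf6 with 55, 33 and 46 counts (0.045). None of the 8 had over 10% of its coding 31-mers shared with other genes.

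Complex II, succinate dehydrogenase, is the entry point from the tricarboxylic acid cycle and has no subunit encoded in the mitochondrial genome. Sdhb, the iron-sulfur subunit, had 1333, 1272 and 1223 counts (1.51 ± 0.07 per coding base). Sdha, the flavoprotein that oxidises succinate, had 2132, 1888 and 1709 counts (0.959 ± 0.107). The membrane anchors were Sdhd with 413, 399 and 406 counts (0.851 ± 0.015) and Sdhc with 265, 223 and 236 counts (0.476 ± 0.042). Sdhb and Sdhc were the highest and the lowest of the complex. The count of Sdha was highest in library 1 and lowest in library 3, as the library totals are, and its level was 643, 613 and 614 CPM.

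In complex III, which hands electrons from coenzyme Q to cytochrome c, small subunits were the densest. Uqcrh, the hinge protein beside cytochrome c1, had 483, 490 and 482 counts (1.82 ± 0.02 per coding base), Uqcrq 467, 438 and 434 (1.68 ± 0.07) and Uqcr10 342, 319 and 309 (1.68 ± 0.09). Uqcrc2, a core structural subunit, had 1496, 1454 and 1435 counts (1.08 ± 0.02). The lowest were Uqcr11 with 112, 118 and 111 counts (0.677) and Uqcrb with 178, 174 and 163 counts (0.516). Uqcr11 and Uqcrb share 56.5% and 89.4% of their coding 31-mers with other genes, the only members of complex III above 50%.

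In complex IV the nuclear subunits surround a core encoded in the mitochondrial genome. Cox6b1, on the intermembrane side, had 522, 528 and 505 counts (2.01 ± 0.05 per coding base). Cox4i1, the largest nuclear subunit and a site of regulation by ATP, had 1050, 1060 and 1055 counts (1.68 ± 0.01). Scaled to the library totals, Cox4i1 had 317, 344 and 379 CPM. Cox7a2 had 409, 408 and 413 counts (1.65 ± 0.01) and Cox7b 381, 377 and 370 (1.57 ± 0.02). Cox5a with 686, 682 and 636 counts, Cox8a with 319, 332 and 306, Cox6c with 299, 299 and 302 and Cox6a1 with 429, 432 and 431 also lay above 1 per coding base. Cox5b, Cox7a2l and Cox7c lay below 0.5, and 74.2%, 61.6% and 100% of their coding 31-mers are shared, while Cox6c was dense with 67.2% shared.

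In complex V, Atp5e, the epsilon subunit of the central stalk, was the densest member of all, with 387, 383 and 379 counts (2.46 ± 0.03 per coding base). Atp5g3 had 782, 744 and 748 counts (1.79 ± 0.05). Atp5c1, the gamma subunit that turns inside the catalytic head, had 1516, 1521 and 1477 counts (1.68 ± 0.03). Atp5mpl, a small membrane subunit, had 286, 279 and 264 counts (1.59 ± 0.06). The head itself is built of the alpha and beta subunits, which are the members with the highest CPM. Atp5a1 (alpha) had 716, 704 and 798 CPM (1.36 per coding base) and Atp5b (beta) 675, 675 and 734 CPM (1.34).

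Where a subunit has a paralogue of narrow tissue use, the widely expressed gene had 306 or more counts in each library and the paralogue 10 or fewer. Cox4i2, used in lung, had 1 count in each library, and per coding base Cox4i1 was 865 times as dense (95% interval 296 to 4197, from the exact Poisson interval of the 3 Cox4i2 counts). Cox6a2, the heart and skeletal muscle form, had 0, 1 and 0 counts, and Cox6a1 was 1119 times as dense (201 to 44197). Cox7b2 had 0, 0 and 2 counts, and Cox7b was 578 times as dense (160.03 to 4774). For these genes the ratio rests on 3 counts or fewer. All folds between paralogues are ratios of counts in the files, and whether they equal ratios of RNA was not tested.

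Cox8b, a muscle and fat form in mouse, and Cox8c, a testis form, had 0 counts in all libraries. Against a floor of 3 counts over the group, Cox8a was at least 302-fold higher than Cox8b and at least 310.4-fold higher than Cox8c. Ndufa4 was at least 481-fold higher than Ndufa4l2 by the same floor. Cox6b2 and Cox7a1 had more counts. Cox6b2, the testis form, had 10, 6 and 10 counts, so that Cox6b1 was 6.50 ± 0.42 higher on the log2 scale of (count + 0.5) per coding base, or 93.4-fold in summed counts per coding base (63.8 to 143).

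Cox7a1, the heart and muscle form, had 3, 7 and 3 counts, and Cox7a2 was 6.69 ± 0.64 higher on that scale, or 107-fold in summed counts per coding base (62.7 to 201). Cox7a2l, whose product helps to join complexes III and IV into supercomplexes, had 150, 136 and 146 counts, and the log2 difference Cox7a2l minus Cox7a2 was -2.20 ± 0.07. Because 61.6% of the coding 31-mers of Cox7a2l are shared, against 11.9% in Cox7a2, this difference is one of counts in the files and is not read as an order of RNA levels. None of the 8 restricted paralogues shares a coding 31-mer with another gene. Markers of muscle, fat and testis germ cells were scarce, and no markers of lung or hypoxia were examined. Of 10 muscle markers only Tnnt3 reached 1 CPM in each library, with sums of 6.33, 4.87 and 4.31 CPM over the list. None of 5 fat markers and none of 6 testis germ cell markers did, with sums of at most 1.21 and 1.44 CPM.

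**Figure D2:**
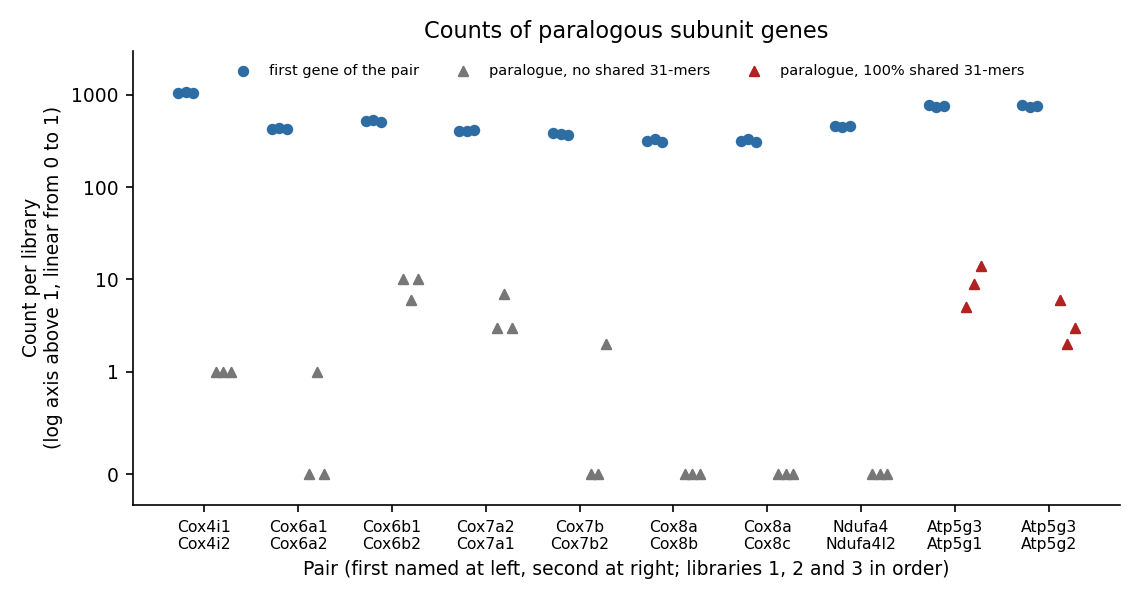
Counts per library (vertical axis, log above 1 and linear from 0 to 1) are shown for pairs of paralogues, with the first-named gene at the left of each pair and its 3 libraries in order. First-named genes lie between 306 and 1060 counts, and the second-named between 0 and 14.

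The c subunit differed from these pairs in its sequence. Its mature protein is encoded by Atp5g1, Atp5g2 and Atp5g3, which differ mainly in the targeting peptide removed on import. Atp5g1 had 5, 9 and 14 counts and Atp5g2 6, 2 and 3, and Atp5g3 was 6.33 ± 0.74 and 7.68 ± 0.66 higher on the log2 scale of (count + 0.5) per coding base. All coding 31-mers of Atp5g1 and Atp5g2 occur in other annotated genes, and none of Atp5g3 does. This covers the whole coding sequences, of which the capitals above mark only the printed part. The sources used here do not say how reads with several matches were counted, so the counts of Atp5g1 and Atp5g2 are uncertain as measures of their RNA.

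Another 4 members, named here for their sequence, have all coding 31-mers shared. Cox7c had 6, 14 and 8 counts (0.042 per coding base), although its product is part of every complex IV, and Atp5l, the g subunit of the ATP synthase, had 9, 10 and 7 (0.028). Ndufab1 had the counts given above, and Ndufb4, an accessory subunit, had 48, 51 and 43 (0.122). All 6 fully shared members were at or below 0.122 per coding base. The other genes that hold their 31-mers number 46, of which 43 are annotated pseudogenes. Of the 46 only 3 have a row in the count tables, and these had 0 counts in all.

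Partial sharing did not order the members step by step. The 12 members with 50% to under 100% of their coding 31-mers shared had a median of 0.514 counts per coding base. The 36 with a smaller share above 0 had 1.24, and the 31 with none, leaving out the 8 restricted paralogues, 0.959. Over all genes, 143 of the 837 that are fully shared were detected (17.1%), against 52.6% of genes with no shared coding 31-mer. Among genes of the same pathway, Sco2, a copper chaperone of complex IV, is fully shared and had 127, 116 and 84 counts. Low values of members with over 50% shared are therefore given as counts in these files, and their order against other members is not read as an order of RNA levels.

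Between the libraries, the counts of members were close to equal although the totals differed. The library 3 total was 0.839 of that of library 1, the median ratio over the 81 members with 30 or more summed counts was 0.959, and over all genes so tested it was 0.851. In 30 of the 81 members, or 37.0%, the highest count was within 5% of the lowest, against 4.40% of all genes tested. This share rose with density over all genes too. Under 0.5 counts per coding base it was 21.1% of members and 2.19% of all genes, and from 0.5 to 1 13.6% and 8.72%. From 1 to 1.8 it was 52.8% and 29.6%, and from 1.8 upward 100% (4 members) and 76.3%. Examples of counts within 5% are Cox6a1, Cox6c, Cox4i1 and Cox7a2, given above. Another is Atp5k, the e subunit of the ATP synthase, which had 278, 277 and 275 counts. Over the 40 members with 1 or more count per coding base the ratio of library 3 to library 1 ran from 0.904 to 1.08. These examples were chosen after their values were seen.

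Scaled to the totals, equal counts become a higher level in the library with the smallest total. Library 1 was lowest and library 3 highest in CPM in 58 of 81 members, or 71.6%, against 21.2% of all genes tested. Under TMM library sizes these were 53 members and 17.6% of all genes, and with DESeq2 size factors 56 members and 18.1%. By library totals, this order too was more frequent in denser genes. From the sparsest to the densest of the same classes it held in 47.4%, 63.6%, 86.1% and 100% of members. Over all genes it held in 16.9%, 36.9%, 65.2% and 96.3%. The index of dispersion is the chi-square statistic over its 2 degrees of freedom. Under counting noise alone its mean is 1 and its median is lower, so the medians given here are not to be held against 1. Against the library totals its median was 2.34 for members and 1.89 for all genes tested. Against equal counts in the 3 libraries, an expectation added after the values were seen, it was 0.530 for members and 2.50 for all genes.

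By density, the index of members against equal counts was 1.02 under 0.5 counts per coding base (19 members), 0.703 from 0.5 to 1 (22 members), 0.421 from 1 to 1.8 (36 members) and 0.0433 from 1.8 upward (4 members). The same medians over all genes tested were 2.55, 2.98, 1.38 and 0.241. Members and all genes alike had their lowest index in the densest class. Against the totals the members' medians were 1.46, 2.06, 3.01 and 2.98. Sdha stood apart among abundant members, with an index of 23.6 against equal counts and an adjusted p of 0.403 in the chi-square test against the totals. The sources used here do not say whether duplicate reads were removed before counting.

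**Figure D3:**
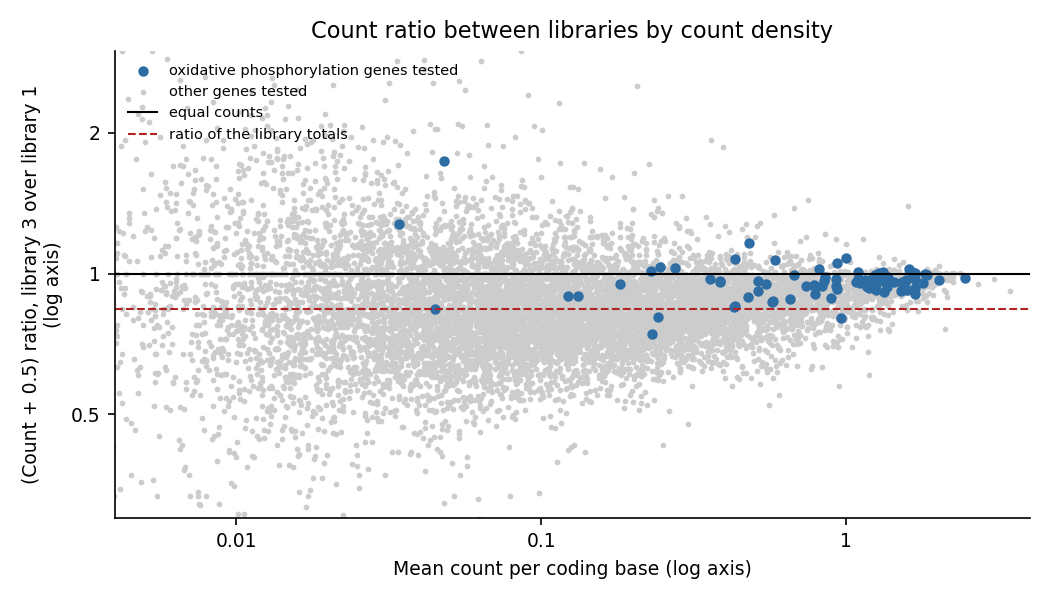
The ratio of (count + 0.5) in library 3 to that in library 1 (vertical axis, log) is plotted against the mean count per coding base (horizontal axis, log) for members and other genes with 30 or more summed counts; the few points outside the axes are not drawn. Members with 1 or more count per coding base lie between 0.904 and 1.08 in the ratio of counts, near the line of equal counts and above the ratio of the library totals of 0.839.

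A chi-square test of each gene's counts against the library totals, Benjamini-Hochberg adjusted over 10043 genes, called 11 of the 81 members tested (13.6%), against 22.7% of all genes. In complex I these were Ndufb7, Ndufv1, Ndufv2 and Ndufa11 (adjusted p of 0.0114, 0.0378, 0.00666 and 0.00563). In complex III they were Uqcrc1, Uqcrc2 and Uqcrfs1, the Rieske iron-sulfur subunit (0.0225, 0.00926 and 0.000544), in complex IV Cox4i1 (0.00222), and in complex V Atp5a1, Atp5b and Atp5c1 (0.000573, 0.0363 and 0.00264). Of the 81 members tested, 10 were called with their highest CPM in library 3 (12.3%, against 8.04% of all genes tested), and 1 with its highest in library 2 (1.23%, against 7.03%), Uqcrc1 with 406, 461 and 429 CPM. Uqcrfs1 had 226, 249 and 284 CPM. Ndufa11, Uqcrfs1, Uqcrc1, Atp5a1 and Atp5b are named for being called.

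The differences called were small. In none of the 11 was the highest CPM over 1.5 times the lowest. By density, 0 of 19, 3 of 22, 8 of 36 and 0 of 4 members were called from the sparsest to the densest class, against 21.3%, 27%, 35.4% and 68.8% of all genes in these classes. A call also depends on the number of counts. The median mean CPM was 185 in members and 310 in all genes from 1 to 1.8, and 154 and 425 from 1.8 upward. From the sparsest class up, the median ratio of highest to lowest CPM was 1.21, 1.13, 1.15 and 1.17 in members. Over all genes it was 1.26, 1.13, 1.13 and 1.17. Fewer calls at equal density are therefore not read as smaller differences. At an unadjusted p under 0.05 it was 3 of 19 members in the sparsest class, against 2811 of 8647 genes. In the densest class it was 2 of 4 members, against 67 of 80 genes. No complex II gene and no assembly factor was called by the adjusted chi-square test, and at an unadjusted p under 0.05 these were 0 of 4 and 1 of 8. Over all genes tested, 3441 of 10043 had an unadjusted p under 0.05. Without library 1 the count of called members was 2 (2.47%, against 13.1% of all genes), without library 2 it was 15, which is 18.5% of members against 15.3% of all genes, and without library 3 it was 1 (1.23%, against 9.43%). With TMM sizes or DESeq2 size factors 8 members were called (22% and 21.9% of all genes), with expectations from genes of the same density 4 (20.3%) and with equal counts expected 7 (36.5%). EdgeR's quasi-likelihood test of each library against the other two, which allows for spread beyond counting noise, called 0 of 81 members and also 0 at an unadjusted p under 0.05, against 0.395% and 14.1% of all genes. DESeq2 called 0 of 90 members in either way, against 0.0132% and 1.63% of all genes. The B cell markers, like the members, had their lowest summed CPM in library 1 and their highest in library 3, and their part in these differences was not tested.

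Other genes of the pathway were read from lists by role, with the same detection rule and chi-square test (background 47.3% detected and 22.7% called). Assembly factors of complex IV were nearly all present, 18 of 19 detected and 1 of 18 tested called (Coa7, highest in library 3). Surf1, which helps to insert haem into the enzyme, had 175 ± 9.10 CPM, and Cox20, a chaperone of a core subunit, 125 ± 2.25 CPM. Cox17, a copper chaperone, had a count of 0 in each library, and all its coding 31-mers are shared. Of 8 further complex I assembly factors all were detected, with Tmem126b at 75.0 ± 1.15 CPM, Acad9 at 74.8 ± 10.8 CPM and Nubpl lowest at 5.64 ± 1.05 CPM. Acad9 (highest in library 2) and Ecsit (highest in library 3) were called.

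Of 13 assembly factors of complexes II, III and V, 12 were detected and 0 of 11 tested were called by the adjusted chi-square test. At an unadjusted p under 0.05 it was 2 of 11, against 3441 of 10043 of all genes tested. Uqcc2 for complex III had 109.5 ± 5.43 CPM and Sdhaf2, which helps to attach the flavin to Sdha, 75.1 ± 4.69 CPM. Sdhaf1 had a count of 0 in each library and is fully shared. Of 9 genes listed as mobile carriers and other electron entry enzymes, 7 were detected. The list also holds Cyc1, which encodes cytochrome c1 of complex III and falls outside the symbol rule for members. Etfb and Etfa, the subunits of the electron transfer flavoprotein, had 276 ± 13.5 and 246 ± 21.3 CPM. Cyct, the testis cytochrome c, had 0, 1 and 0 counts. Cycs, the somatic cytochrome c, had only 2, 1 and 0 counts and is fully shared. Etfa and Etfdh were called, both highest in library 3.

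Of 13 measured regulators of mitochondrial transcription and biogenesis 12 were detected. Nrf1, a transcription factor of nuclear respiratory genes, had 197 ± 18.5 CPM, and Gabpb1, the partner of the ETS factor Gabpa, 145 ± 16.8 CPM. Ppargc1a, the coactivator PGC-1 alpha that drives biogenesis in muscle and brown fat, had 0, 0 and 3 counts. Here 6 of 12 were called, with the highest CPM in library 1 for Nrf1, in library 2 for Pprc1, Gabpb1 and Polrmt, and in library 3 for Tfb1m and Myc.

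Of the 13 subunits encoded in the mitochondrial genome 7 were detected, all 7 were called, and all were highest in library 3. The highest were mt-Nd5 with 846, 934 and 1000 CPM and mt-Cytb with 666, 717 and 802 CPM. Their counts were close to equal, 2807, 2875 and 2782 for mt-Nd5 and 2208, 2208 and 2231 for mt-Cytb. The other 6, mt-Nd3, mt-Nd4l, mt-Co2, mt-Co3, mt-Atp6 and mt-Atp8, had a count of 0 in each library. Of these 5 share at least 99.05% of their coding 31-mers with other annotated genes, and mt-Atp8 shares 5.85%.

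Promoters were searched because nuclear respiratory genes are known targets of Nrf1, ETS factors such as Gabpa, and Yy1. RefSeq windows of 300 bases (250 before and 50 after the start, GRCm38.p6) existed for 74 members, 79 windows in all. The shares below are descriptions without a test. The palindromic Nrf1 motif (GCGCA, any base, GCGC) matched in 25.3% of the members' windows, against 10.7% of the windows of all detected genes and 4.60% of all windows. The Yy1 motif AAGATGGCG matched in 10.1%, against 3.29% and 1.40%. The ETS motif CCGGAAG matched in 22.8%, against 19.4% and 8.86%. Both strands were searched, and matches of different motifs may overlap.

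The Sp1 motif GGGCGG matched in 43.0% of the members' windows, less than in 62.5% of those of detected genes and more than in 35.7% of all windows. The TATA motif TATAAA matched in 10.1%, against 6.79% and 13.6%. Of the 79 windows 39 held at least one of the Nrf1, ETS and Yy1 motifs. The windows of Sdha and Cox6a1 are printed as those with several Nrf1 matches, 5′ to 3′ on the gene's strand, with Nrf1 and ETS matches in capitals. Sdha lies at chr13:74322254-74350280 on the minus strand, with its window at chr13:74350191-74350490, and the Cox6a1 window is chr5:115348909-115349208, also on the minus strand.
Sdha: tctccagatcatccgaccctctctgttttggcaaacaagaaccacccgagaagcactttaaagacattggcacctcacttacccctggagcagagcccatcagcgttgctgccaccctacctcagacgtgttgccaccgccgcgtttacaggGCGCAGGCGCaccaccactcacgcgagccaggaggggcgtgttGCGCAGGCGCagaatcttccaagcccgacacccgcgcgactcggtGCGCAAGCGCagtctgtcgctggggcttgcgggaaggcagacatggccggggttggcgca
Cox6a1: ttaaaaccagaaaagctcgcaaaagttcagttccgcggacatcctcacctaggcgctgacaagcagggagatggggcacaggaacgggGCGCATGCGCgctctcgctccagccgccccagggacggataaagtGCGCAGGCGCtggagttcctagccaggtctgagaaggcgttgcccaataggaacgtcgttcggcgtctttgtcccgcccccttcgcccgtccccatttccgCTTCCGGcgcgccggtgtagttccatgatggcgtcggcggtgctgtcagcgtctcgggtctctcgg
A match is a description of the letters and not a site in use.

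**Figure D4:**
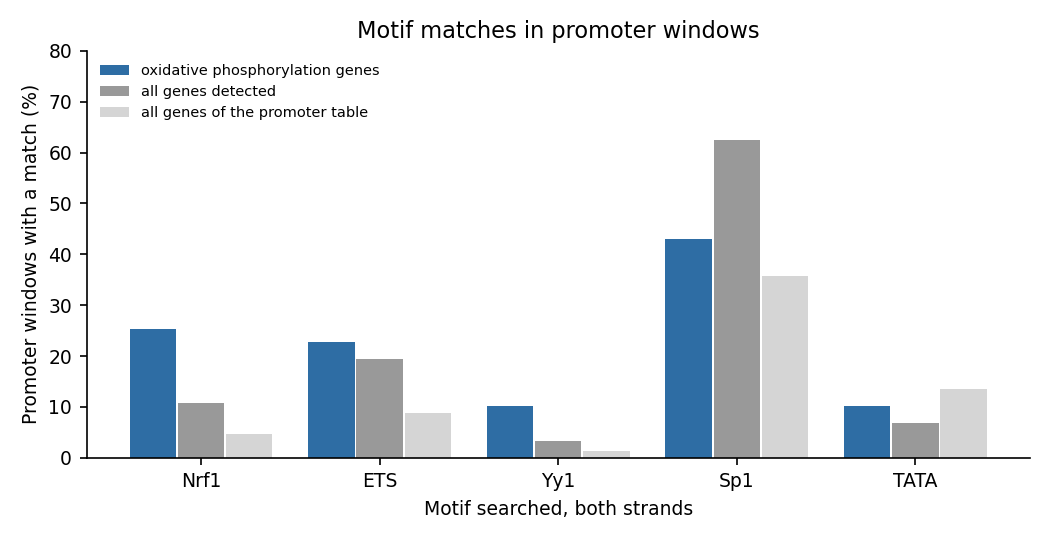
Bars give the percentage of 300-base promoter windows with a match to each motif, for oxidative phosphorylation genes, all detected genes and all genes of the promoter table. Nrf1 (25.3%) and Yy1 (10.1%) matches were more frequent in members than in detected genes (10.7% and 3.29%), and Sp1 matches less frequent (43.0% and 62.5%).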

How the data were processed

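Poly(A) RNA of 3 Treg libraries was analysed as counts per gene, deposited by the authors unscaled, as 1 table per library. Per the notes deposited with the tables, they were made on mm10 with GENCODE M4. The sources used here do not give the aligner, the counter, the strand setting or the treatment of duplicates and multiple matches. Symbols, lengths and transcripts came from GENCODE M21 (GRCm38): 22195 of 22457 identifiers had a symbol and 21784 a coding length. CPM used library totals (3316275, 3079004 and 2782259). Coding 31-mers were looked up in the transcripts of other genes. The chi-square test took genes with 30 or more summed counts and a threshold of 0.05. On simulated data it recovered 200 of 200 changed genes, with 6 false calls among 10042 genes. The simulation held counting noise only, and its changes were larger than the differences called in members. It therefore cannot show how many calls are false or missed in the real libraries. Isoform differences used a pseudocount of 0.5. Intervals are exact 95% Poisson intervals of the paralogue's count and cover counting error only.

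Members and lists were chosen with earlier results of these data known. Named with values were the 4 densest and 2 least dense genes of each complex, isoform pairs, complex I core and complex II genes, undetected members, and the 2 highest and 1 lowest gene of each pathway list; further names are marked as chosen later, and 1 gene that the rule names is not reported here. Mterf1 was not analysed here. Alternatives were other scalings, filters, lengths and pseudocounts, edgeR 4.0.16 and DESeq2 1.42.0 (R 4.3.3), and each library left out. Python 3.11.15 was used with numpy 2.4.6, scipy 1.17.1 and pandas 2.3.3.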

Additional observations from a re-analysis of the deposited data

How the results depend on the processing

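No paired analysis was possible because there is 1 group. Detected members numbered 85 to 87 under every alternative tried, and summed CPM moved by less than 1 SD with TMM or with a library left out. Called members numbered 11 as reported, 8 with TMM or DESeq2 sizes, 4 with expectations from genes of the same density, 7 with equal counts expected (chosen after seeing the data), 0 by edgeR and DESeq2, and 1 to 15 with a library left out. The median dispersion index of members went to 1.24 (0.5 to 1 counts per coding base), 1.86 (1 to 1.8) and 1.90 (1.8 and above) with TMM; to 0.853 and 0.0835 in the upper 2 classes with same-density expectations; and to 0.703, 0.421 and 0.0433 with equal counts.

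With union exon length the medians became 0.302 (complex I), 0.0888 (assembly factors), 0.396 (II), 0.356 (III), 0.0908 (IV) and 0.218 (V). Without members over 50% shared they became 1.05 (I), 1.38 (III), 0.652 (IV) and 1.52 (V), and summed CPM 1245 for IV and 3031 for V. On the log2 scale, a pseudocount of 1 gave 8.76 for Cox4i1 minus Cox4i2, 8.24 for Cox8a minus Cox8b, 8.28 for Cox8a minus Cox8c and 8.91 for Ndufa4 minus Ndufa4l2. Exon length gave 8.48, 8.54, 8.88 and 9.49 for these pairs, 5.69 for Cox7a2 minus Cox7a1 and 7.55 for Atp5g3 minus Atp5g1. No isoform difference changed sign. For the 11 called members under other scalings, same-density expectations, other filters and left-out libraries, the call was kept in 50 repeats and lost in 34 with the same sign, some at an unchanged size; edgeR and DESeq2 called none of them, and equal counts are not in this tally. With a library left out, the log2 CPM difference of the last minus the first remaining library ran from -0.00058 to 0.12 in Atp5b, -0.026 to 0.18 in Atp5a1 and -0.037 to 0.22 in Ndufv1 (each lowest without library 3) and from -0.10 to 0.18 in Uqcrc1 (lowest without library 1), so 4 repeats changed sign, without a call; this compares different library pairs, and the cause was not tested. Depth limits the paralogues, of which 3 had 1 to 3 summed counts and 3 had 0.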

Other observations

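Genes of the tricarboxylic acid cycle, which feeds NADH to complex I and succinate to complex II, were all expressed: 17 of 17 were detected, against 47.3% of all genes. Mdh2, the mitochondrial malate dehydrogenase, had 560, 575 and 613 CPM in libraries 1, 2 and 3. Ogdh, a subunit of the oxoglutarate dehydrogenase complex, had 626, 601 and 478 CPM, and Suclg2, a subunit of succinyl-CoA ligase, was lowest at 24.7, 23.7 and 21.9 CPM. The chi-square test called 5 of 17, against 22.7% of all genes tested. Among these, Ogdh (adjusted p = 1.75e-12) was highest in library 1, Sucla2 (0.00548) in library 2, and Idh3g (0.000161) and Fh1 (4.40e-05) in library 3. Genes of coenzyme Q synthesis were lower: 11 of 11 were detected, from Coq8a at 85.9 ± 7.59 CPM and Coq3 at 53.1 ± 0.470 CPM (SD, 3 libraries) to Coq2 with 12, 14 and 19 counts, and 1 of 11 was called, Coq6 (adjusted p = 0.0399), highest in library 1.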
